A study of Arabidopsis thaliana with 6 samples.

Results

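The genes described here are the 4 ferritin genes of Arabidopsis thaliana (FER1, FER2, FER3 and FER4), the early light-induced protein genes ELIP1 and ELIP2, and SIG5, listed as SIGE in the gene table. These 7 genes, of 27444 nuclear protein-coding genes, were examined for places bound by PRR7, a clock protein of the pseudo-response regulator family. A binding region was taken as theirs when its summit, the position of highest signal, lay inside the gene or within 3000 bp of it. By this rule 14 of the 1563 listed regions belonged to them: 4 of 685 in HA-PRR7 experiment 1, 5 of 380 in list KC and 5 of 355 in list TL of HA-PRR7 experiment 2, and 0 of 143 in untagged prr7-3 experiment 1. The genes were chosen by the called regions and the fold enrichments of these same lists, so their regions are described without a test.

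The measurement was chromatin immunoprecipitation with an anti-HA antibody and sequencing of the recovered DNA. Whole seedlings aged 15 days carried either the prr7-3 mutation alone or, in line #151, prr7-3 with HA-tagged PRR7 expressed from the PRR7 promoter (PRR7::HA-PRR7). Both genotypes carry prr7-3, a mutation of the native PRR7 gene, and all HA-PRR7 values come from 1 transgenic line. Of the 6 samples, 2 were HA-PRR7 IPs, 2 were prr7-3 IPs and each genotype had 1 input, both from experiment 1; region lists of 3 IPs were used, leaving out the experiment 2 IP of prr7-3, which was not analysed here. The labels do not state the hour of harvest or whether the experiments used separately grown plants.

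Ferritins are protein shells that store iron in a soluble, unreactive form, in plants mainly inside plastids. Iron released into a lit chloroplast promotes the formation of reactive oxygen, and ferritin limits it. ELIPs are thylakoid proteins related to the light-harvesting antenna that accumulate during greening and under excess light, where they bind chlorophyll that would otherwise be photosensitizing. SIG5 is a sigma factor made from a nuclear gene that directs the plastid RNA polymerase to light-responsive promoters, such as that of psbD, and carries timing information from the nuclear clock to the chloroplast. PRR7 acts in the clock as a daytime transcriptional repressor.

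HA-PRR7 regions lay at 5 of the 7 genes. FER1, ELIP1 and SIG5 had a region in experiment 1 that overlapped a region in both lists of experiment 2. FER3 and FER4 were listed in KC and TL but not in experiment 1. FER2 and ELIP2 had none in any list. No prr7-3 region lay at any of the 7. For comparison, 5.01% of all protein-coding genes had a region by the same rule in HA-PRR7 experiment 1, 2.90% in KC, 2.71% in TL, 2.34% in both experiment 2 lists, 0.561% in both experiments and 1.03% in prr7-3. Because these lists chose the genes, nothing is read from that difference.

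KC and TL are 2 lists of the same IP sample and count as 1 replicate, so each gene has at most 2 independent HA-PRR7 values. IP signal is the height at the summit in the peak caller's units. Listed regions started just above a signal of 10 in each list, and the median region had 11.6 in experiment 1, 13.2 in KC and 13.4 in TL. Absence from a list means that no region was called and gives no level.

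**Figure D1:**
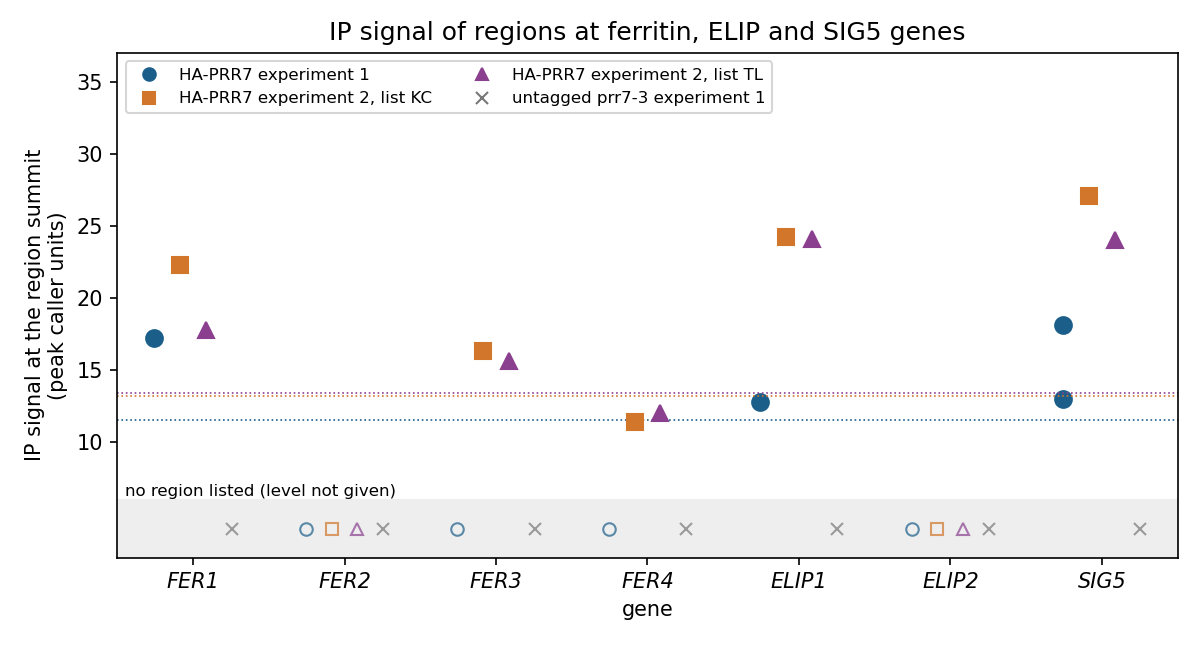
IP signal at the summit (vertical axis, peak caller units) of every region at the 7 genes, by list. Filled symbols are listed regions, open symbols and crosses in the grey strip mark lists with no region there, and dotted lines are the medians of the 3 HA-PRR7 lists; SIG5, ELIP1 and FER1 stand above the medians in every HA-PRR7 list, FER2 and ELIP2 have no region, and FER4 lies below the medians of KC and TL.

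FER1 (AT5G01600), the leaf ferritin gene whose transcript is induced by iron excess, held its region inside the gene. In the TAIR10 coordinates of the lists the regions were chr5:229386-229859 in experiment 1, chr5:229624-229928 in KC and chr5:229623-229925 in TL. The summits lay 304, 301 and 282 bp inside the higher-coordinate end of the gene. The experiment 1 and KC summits were thus 3 bp apart. Of the 68 recurring regions of experiment 1 that paired one to one with KC, 7 had summits closer than that, and the median distance was 23 bp. The experiment 1 and TL summits were 22 bp apart, with 30 of 68 pairs closer and a median of 22.5 bp. Between KC and TL the FER1 summits differed by 19 bp, and 273 of 295 pairs were closer (median 4 bp). The 3 bp distance therefore held for 1 of the 2 lists of experiment 2 only.

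The IP signal at FER1 was 17.2 in experiment 1, 22.3 in KC and 17.8 in TL. These placed it at rank 50 of 685, 51 of 380 and 73 of 355, within the upper part of each list. The region held 27 IP tags in experiment 1 (exact Poisson 95% interval 17.8 to 39.3), 122 in KC (101.3 to 146) and 107 in TL (87.7 to 129). Such intervals cover counting error only. Experiment 1 counted 24 tags in its control there, and experiment 2 counted 1 (KC) and 0 (TL). The deposited enrichment by tags at FER1 in experiment 1 was 7.43, so raw IP and control tags are not on the same scale. The fold enrichment in the deposited lists was 12.5, 22.3 and 17.8.

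FER3 (AT3G56090) and FER4 (AT2G40300), the other ferritin genes active in leaves, each had a region just outside the gene. At FER3 it was chr3:20816010-20816223 in KC and chr3:20816007-20816226 in TL, with summits 72 and 76 bp beyond the higher-coordinate end. The IP signal at FER3 was 16.3 in KC and 15.6 in TL, from 80 IP tags (63.4 to 99.6) and 84 IP tags (67.0 to 104). FER3 ranked 103 of 380 in KC and 114 of 355 in TL by IP signal, above the median region of both lists.

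At FER4 the regions were chr2:16833291-16833431 in KC and chr2:16833271-16833463 in TL, and both summits fell on the same base, 62 bp beyond the gene. The IP signal at FER4 was 11.4 in KC and 12.1 in TL, at ranks 275 and 230. Its 45 IP tags in KC (32.8 to 60.2) and 50 in TL (37.1 to 65.9) were among the lowest of those lists, with fewer tags in only 3.42% of KC regions and 7.32% of TL regions. FER4 was the weakest of the bound genes here, and the tag intervals of FER3 and FER4 did not overlap in either list. The FER4 regions were also narrower, 141 and 193 bp against 214 and 220 bp at FER3, so the difference per length was smaller, with 31.9 and 25.9 tags per 100 bp at FER4 and 37.4 and 38.2 at FER3.

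FER2 (AT3G11050), the ferritin gene known for expression in seeds, had no region. The nearest summits lay 8.27 kb away in both KC and TL, 29.0 kb away in experiment 1 and 451 kb away in prr7-3. No region at any of the 7 genes fell between 3000 and 5000 bp, so a limit of 5000 bp adds none. The farthest summit counted was 1222 bp out, at SIG5, which a limit of 1000 bp leaves out.

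ELIP1 (AT3G22840) had a region beyond its higher-coordinate end at chr3:8086118-8086326 in experiment 1, chr3:8086038-8086497 in KC and chr3:8086086-8086505 in TL. The summit lay 507 bp outside the gene in experiment 1, 618 bp in KC and 622 bp in TL. The experiment 1 summit was 111 bp from that of KC, and 65 of the 68 paired regions agreed more closely. The experiment 1 region, 209 bp wide, sat within the KC region of 460 bp.

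The IP signal at ELIP1 was 12.8 in experiment 1, 24.3 in KC and 24.1 in TL. In experiment 1 that was rank 180 of 685, and in experiment 2 rank 45 of 380 and 39 of 355. Experiment 1 counted 14 IP tags (7.65 to 23.5) against 8 control tags. KC counted 206 IP tags (179 to 236) and TL 190 (164 to 219), the most of any of the 7 genes in those lists. By IP signal ELIP1 thus ranked higher in experiment 2 than in experiment 1. Its signal in experiment 1 was 0.528 times that in KC, below the median of 0.740 over the 68 pairs. The ratio at SIG5, 0.670, was also below that median, and that at FER1, 0.773, was above it. Against TL, where the median was 0.754, the ratio was 0.532 at ELIP1, 0.754 at SIG5 and 0.966 at FER1. SIG5 was thus level with the median there. By fold enrichment ELIP1 ranked 78 of 685 in experiment 1, 311 of 380 in KC and 31 of 355 in TL. With 1 HA-PRR7 IP per experiment the difference in IP signal rank has no replicate check.

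ELIP2 (AT4G14690), the partner gene of ELIP1 with the same kind of product, had no region. Its nearest summits were 67.2 kb away in KC and TL, 301 kb away in experiment 1 and 973 kb away in prr7-3. The ELIP pair, like FER1 and FER2, had a recurring region at one gene and none listed at the other. Only 7.48% of all protein-coding genes had a region in at least 1 HA-PRR7 list. A missing region gives no level, so no difference in binding was measured.

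SIG5 (AT5G24120) had 2 regions in experiment 1 and 1 in each experiment 2 list. The recurring region was chr5:8161381-8161640 in experiment 1, chr5:8161341-8161657 in KC and chr5:8161340-8161663 in TL. Its summits lay 1222, 1195 and 1191 bp beyond the higher-coordinate end of SIG5. They were nearer to AT5G24130, at 363, 390 and 394 bp, so the region lies between the genes and its assignment to SIG5 rests on the 3000 bp rule. With only the nearest gene counted, or within 1000 bp, the recurring region is not assigned to SIG5 and 2 of the 7 genes, FER1 and ELIP1, keep a region in both experiments.

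The IP signal of the region beyond SIG5 was 18.1 in experiment 1, 27.1 in KC and 24.0 in TL, at ranks 42, 35 and 40. IP tags numbered 21 in experiment 1 (13 to 32.1), 148 in KC (125 to 174) and 144 in TL (121 to 170). Control tags were 14, 1 and 0. Of the regions in each list, 93.7%, 90.8% and 88.7% had a lower signal than this one.

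The second SIG5 region was listed in experiment 1 alone, at chr5:8160252-8160377. Its summit fell inside the gene, 20 bp from the higher-coordinate end. The summits at FER3 and FER4 lay 62 to 76 bp outside that end. It had an IP signal of 12.99 and 10 IP tags (4.80 to 18.4) against 9 control tags, the tag number of the median region of that list. The deposited -log10 q was 4.49 for this region, 32.2 for the recurring SIG5 region, 31.6 for FER1 and 11.7 for ELIP1, with a list median of 4.49.

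**Figure D2:**
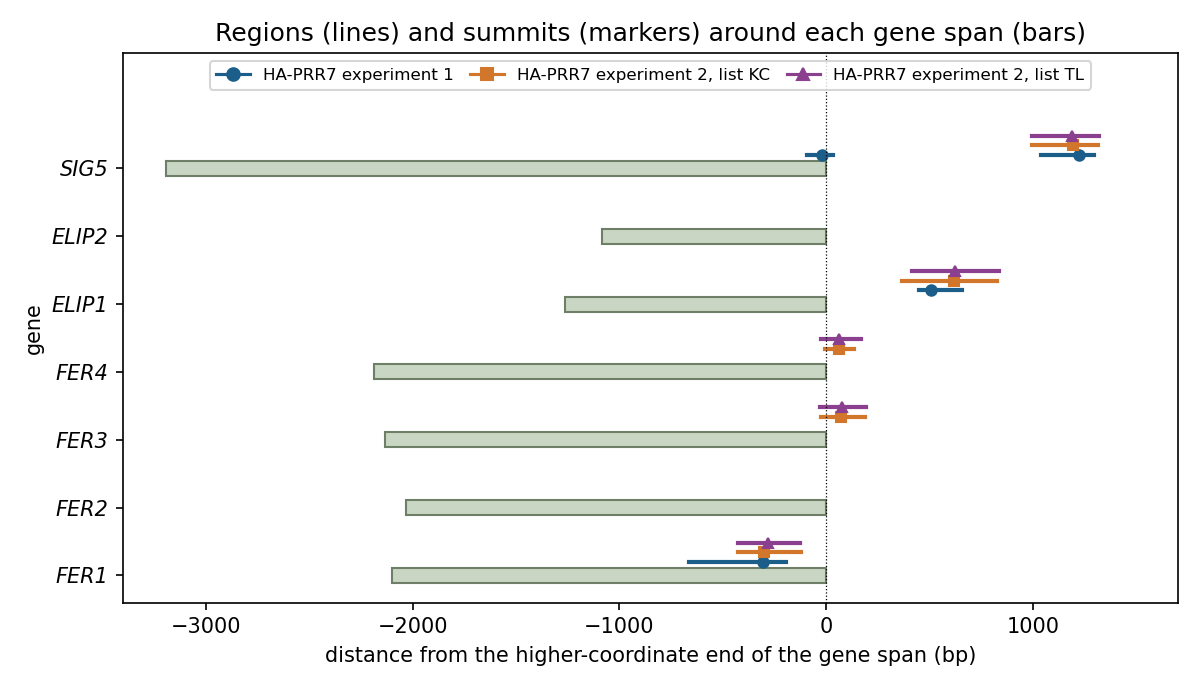
Regions (coloured lines) and their summits (symbols) of the 3 HA-PRR7 lists around the 7 genes, on an axis of base pairs from the higher-coordinate end of each gene span (green bars). The summits of all 14 regions lie near or beyond that end, from 304 bp inside (FER1) to 1222 bp outside (SIG5), and FER2 and ELIP2 have none.

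At all 5 bound genes the summits lay closer to the higher-coordinate end of the gene than to the other. Regions of different lists at a gene mostly mark the same site. The share of all regions placed this way was not computed, so nothing is read from it. They were beyond it at FER3, FER4, ELIP1 and the recurring SIG5 region, and inside the gene at FER1 (282 to 304 bp) and the second SIG5 region (20 bp). The gene table gives no strand, so this end is not called the start or the finish of the gene. The neighbours on that side were AT5G24130 at SIG5, AT3G22845 at ELIP1 (947 to 1062 bp from the summits), MRLK, a receptor-like kinase gene, at FER3 (755 to 759 bp), and AT2G40310 at FER4 (709 bp). At FER1 the summit was inside the gene, the nearest other gene was the non-coding AT5G01595 at 461 to 483 bp on the other side, and the nearest other protein-coding gene was AT5G01610 at 1060 to 1082 bp. For ELIP1, FER3 and FER4 the named gene was the nearest protein-coding gene.

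By IP signal the order in KC was SIG5, ELIP1, FER1, FER3 and FER4. In TL it was ELIP1, SIG5, FER1, FER3 and FER4, with ELIP1 and SIG5 nearly level at 24.06 and 24.04. In experiment 1 it was SIG5, FER1 and ELIP1. SIG5, ELIP1 and FER1 changed places between lists by IP signal. FER3 and FER4 stood last in both lists of experiment 2. By tags ELIP1 came first in both, and its intervals did not overlap those of FER1 in either list or that of SIG5 in KC, but overlapped that of SIG5 in TL. The ELIP1 regions were also the widest, 460 and 420 bp, and per 100 bp they held 44.8 and 45.2 tags, against 46.7 and 44.4 at SIG5 and 40 and 35.3 at FER1. The tag intervals of SIG5 and FER1 overlapped in both lists, and those of FER1 and FER3 in TL only.

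The deposited fold enrichment divides the IP signal by the control signal. It gave another order of the bound genes in KC and in experiment 1. In TL, where the control signal was 0 at each bound gene, the order was the same as by IP signal. The control was raised to 1 where it was lower, and this rule matched the deposited fold within 1% in 100% of the regions. In experiment 2 a region seldom had more than 1 control tag (0 or 1 in 86.1% of the KC list and 88.2% of the TL list), so a single tag can set the fold. At FER3 the fold was 4.95 in KC, where 1 control tag gave a control signal of 3.30, and 15.6 in TL, where there was none. At ELIP1 it was 8.29 in KC, with 2 control tags and a control signal of 2.92, and 24.1 in TL, with none. The IP signals of the same regions differed by only 1.04 times at FER3 and 1.01 times at ELIP1.

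FER3 accordingly ranked 334 of 380 by fold in KC and 95 of 355 in TL, and ELIP1 ranked 311 and 31. FER1, FER4 and SIG5 had folds that were alike in both lists, 22.3 and 17.8, 11.4 and 12.1, and 27.1 and 24.0. This behaviour was not particular to these genes. Among 295 regions paired one to one between KC and TL, the fold differed by more than 1.5 times in 94 (31.9%) and the IP signal in 2 (0.678%). KC and TL are lists of the same IP, so their close IP signals do not measure reproducibility between IPs. Between experiment 1 and KC, the IP signal differed by more than 1.5 times in 44.1% of 68 paired regions and the fold in 61.8%. Between experiment 1 and TL the shares were 47.1% and 58.8%. The IP signal was used above to place the genes within a list because few control tags can set the fold in experiment 2.

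**Figure D3:**
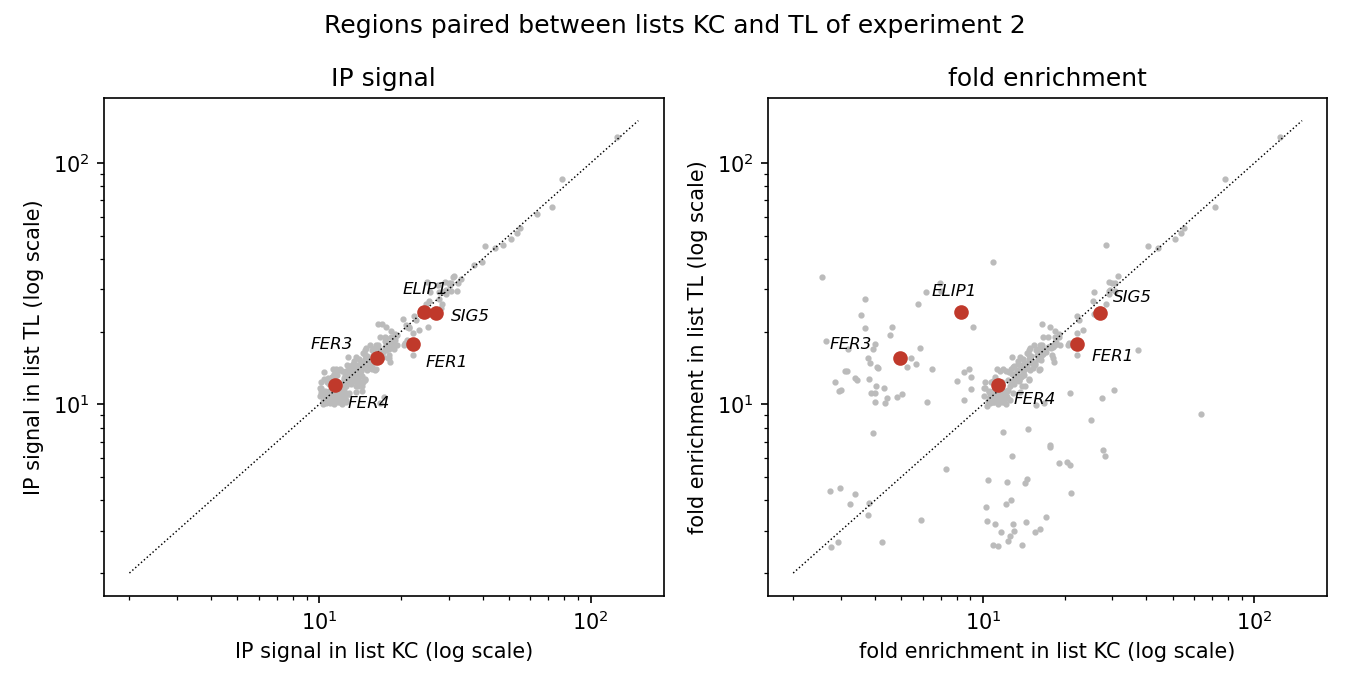
IP signal (left) and deposited fold enrichment (right) of the 295 regions paired between lists KC and TL of experiment 2, both axes on log scales; each grey point is 1 region, red points are the 5 bound genes and the dotted line marks equal values. The IP signals lie along the line, whereas ELIP1 (8.29 and 24.1) and FER3 (4.95 and 15.6) leave it when the signal is divided by the control.

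The experiment 2 regions of the highest IP signal were more often listed in experiment 1 than the others. The nuclear regions of KC and TL were each divided into 5 groups of equal size by IP signal. In the group of highest signal, 51.4% of KC regions (38 of 74, exact Clopper-Pearson 95% interval 39.4% to 63.1%) and 52.2% of TL regions (36 of 69, 39.8% to 64.4%) overlapped a region of experiment 1. SIG5 and ELIP1 were in this group in both lists, and FER1 in KC only. In the next group, which held FER3 in both lists and FER1 in TL, the shares were 14.9% (7.66% to 25.04%) and 14.3% (7.07% to 24.7%). In the group above the lowest, which held FER4, they were 16.0% (8.55% to 26.3%) and 10% (4.12% to 19.5%). The middle group had 13.5% and 11.4% and the lowest 6.67% and 11.4%, so the share did not climb steadily below the highest group. Most regions at the level of FER3 and FER4 were thus not listed in experiment 1, where the median region held 10 IP tags against 74.5 in KC and 75 in TL. Absence of FER3 and FER4 from experiment 1 does not show that PRR7 binding there differed between the experiments.

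**Figure D4:**
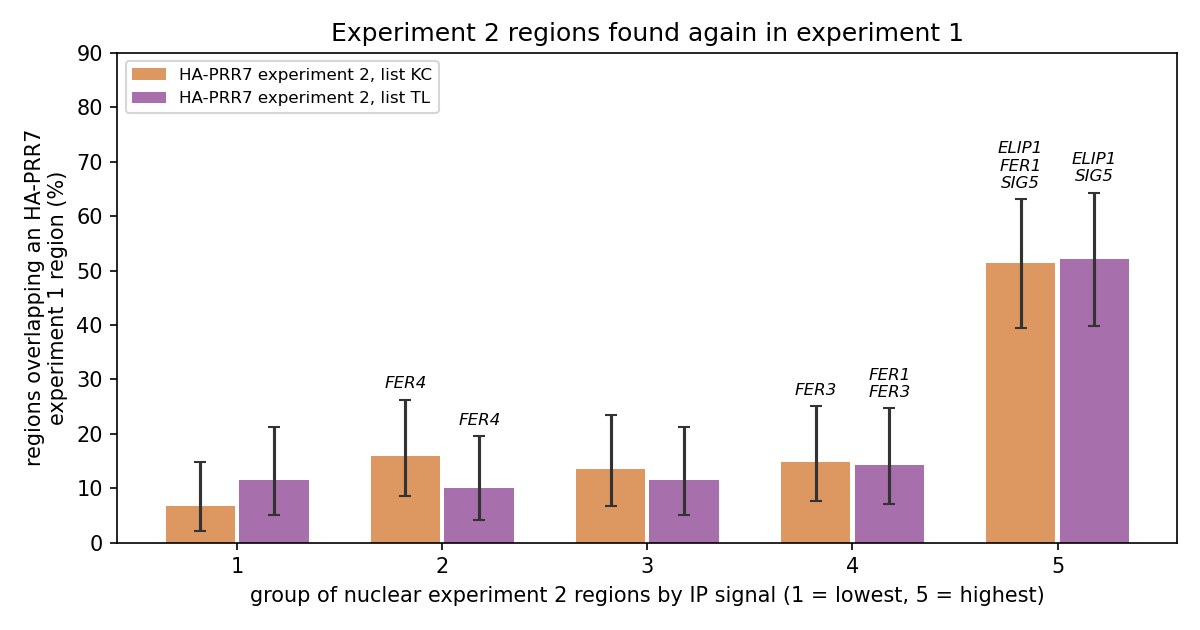
Percentage of nuclear experiment 2 regions that overlapped an HA-PRR7 experiment 1 region (vertical axis), in 5 groups by IP signal in lists KC and TL (1 is the lowest); bars are shares, error bars are exact 95% intervals, and names show the group of each bound gene. The highest group, with SIG5 and ELIP1, stands at 51.4% and 52.2%, and the groups of FER3 and FER4 at 16.0% or less.

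Other genes of the same pathways were examined by the same rule. Among all protein-coding genes, 7.48% had a region in at least 1 of the 3 HA-PRR7 lists. Of 6 plastid sigma factor genes, SIG4 and SIG5 had regions, both of them in both experiments, and SIG1, SIG2, SIG3 and SIG6 had none. SIG5 is among the 7 genes chosen by these lists, so its place in this count was fixed in advance. SIG4 (AT5G13730), another sigma factor of the plastid RNA polymerase, had a higher IP signal than the recurring region of SIG5 in each list. The signal at SIG4 was 20.1 in experiment 1 (rank 29), 33.3 in KC (rank 14) and 33.2 in TL (rank 15). The fold enrichment at SIG4 was lower, 8.93, 14.7 and 7.94 against 13.5, 27.1 and 24.0 at SIG5. The SIG4 summits lay 330, 337 and 339 bp outside the gene. The region held 20, 176 and 178 IP tags against 23, 1 and 1 control tags. SIG4 had a further region in experiment 1 alone, 2588 bp out, with 9 IP tags.

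Of 39 iron homeostasis genes, 6 (15.4%) had a region in some HA-PRR7 list, against 7.48% of all protein-coding genes. In both experiments 0 had one, against 0.561% of all protein-coding genes, so 0 is close to the background share. FER1, FER3 and FER4 were not among the 39, so these counts do not cover the ferritin regions. OPT3, an iron transporter of the phloem, had regions 211 and 218 bp outside the gene with an IP signal of 16.2 in KC and 14.05 in TL, close to FER3. PYE, a bHLH regulator of the iron deficiency response, had signals of 12.96 and 10.9 at its 2 KC regions and 12.1 at its TL region. NEET, an iron-sulfur protein gene, stood near the bottom of both lists at 10.3. NRAMP3, a vacuolar metal exporter, was listed in KC alone (10.6). VTL5, a vacuolar iron transporter-like gene, was listed in experiment 1 alone, with 6 IP tags, 8 control tags and a -log10 q of 0. The median region of experiment 1 held 10 IP tags and 14 control tags. The deposited enrichment by tags at VTL5 was 2.60.

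FRO2, the ferric reductase of the root surface, had regions in experiment 1 and in KC that did not overlap, with summits 1915 and 1117 bp outside the gene. The IP signal was 16.95 in experiment 1, where it ranked 52, next to FER1 at 50, and 11.6 in KC. It had no region in TL and was not the nearest gene to either summit.

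Of 27 ELIP relatives and light-stress genes, 4 (14.8%) had a region in some HA-PRR7 list, against 7.48% of all protein-coding genes. In both experiments 0 had one, against 0.561% of all protein-coding genes, so 0 is close to the background share. ELIP1 was not among the 27. FSD1, an iron superoxide dismutase gene, was the highest, with an IP signal of 19.1 in KC and 18.5 in TL at a summit inside the gene. NPQ4, which encodes the PsbS protein of thermal energy dissipation, had 14.1 and 13.9 inside the gene. ZEP, the zeaxanthin epoxidase gene, had 10.3 and 10.02. SEP2, a relative of the ELIPs, had a region in experiment 1 (signal 15.8, 12 IP tags) whose summit was 3 bp from one in KC (11.1, 44 IP tags), 2163 to 2166 bp outside the gene. SEP2 was not listed in TL and was not the nearest gene. None of the 72 genes of the 3 lists, SIG5 among them, had a region in prr7-3, where 1.03% of all protein-coding genes had one, so 0 is close to the background share.

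The untagged prr7-3 IP had its nearest summit 24.0 kb from FER1, 51.1 kb from FER4, 77.8 kb from SIG5, 186 kb from FER3 and 361 kb from ELIP1. That list held 143 regions with a median of 15 IP tags. It covers experiment 1 alone, so for the regions at FER3 and FER4, listed in experiment 2 only, no prr7-3 region list of the same experiment was used. Which library gave the control tags of experiment 2 is not stated.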

How the data were processed

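Per the submitters' processing notes, reads were aligned with Bowtie to TAIR10; no source used here gives the version, the peak caller, its settings or its control library. For each region the deposited lists give the IP and control signal at the summit, the fold enrichment (their ratio), whole counts of IP and control tags, -log10 q, and scores that share positions with these counts on the peak lines. The lists also give an enrichment by tags. Peak lines repeated the summit of their region in 100% of cases. Total reads per library are not in the lists. Genes came from a RefSeq table of assembly TAIR10.1, whose nuclear coordinates are taken as those of TAIR10. It holds no strand and no sequence, so the planned search of promoter motifs was not run and no sequence is shown.

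Summits were assigned to every gene within 3000 bp. A region was called recurring when a region of HA-PRR7 experiment 1 overlapped KC and TL regions by at least 1 bp and no prr7-3 region (70 regions). Assignment and overlap were tested on simulated data. No test of difference was made, since the genes and lists were chosen with earlier results of these data known. Intervals are exact Poisson or Clopper-Pearson (95%). Named genes were the 7, every gene of the 3 pathway lists with a region, and the nearest neighbours. Analyses used Python 3.11.15, pandas 2.3.3, scipy 1.17.1 and matplotlib 3.10.9. Alternatives were a 1000 bp limit, the nearest gene only, the upper part of each HA-PRR7 list by fold, q or IP signal, a longer overlap (0.5 of the shorter region), either experiment 2 list, and leaving out each replicate.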

Additional observations from a re-analysis of the deposited data

How the results depend on the processing

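Of 62 counts under other settings, 52 stayed within 1.5 times, a limit that admits the fall from 3 to 2 genes in both experiments within 1000 bp. Counts already at 0, such as those of prr7-3, could not change under settings that only remove regions or assignments. The number 52 is therefore not a measure of stability. Ranking by IP signal and accepting either experiment 2 list were chosen after the data were seen. The part of KC with the higher fold kept 2 of 5 genes (FER1 and SIG5), having lost ELIP1 and FER3, whose folds rest on 2 and 1 control tags, and FER4; the part with the higher IP signal kept 4. Genes with a region in both experiments numbered 3; leaving out each replicate in turn gave 3 to 5, which are the counts of the experiment that remains and do not bear on stability. Plastid sigma factors in both experiments fell from 2 to 1 within 1000 bp, with the nearest gene only (SIG4 alone) and in the higher-fold part (SIG5 alone). Iron homeostasis genes fell from 6 to 2 in the part of higher fold, of better q and of higher IP signal (FRO2 and OPT3 in each). ELIP relatives and light-stress genes fell from 4 to 2 in the better-q part, and with either experiment 2 list 1 (SEP2) was in both experiments instead of 0. These parts hold fewer regions by construction. No paired analysis was possible because no value here comes from a test, and prr7-3 has a list for a single experiment. Promoter motifs on 1 or both strands were not run for want of sequence. Regions of experiment 1 rest on as few as 6 IP tags; the depth of the libraries is unknown.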
